A study of Mus musculus with 6 samples.

Results

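Antigen receptors of lymphocytes have no kinase of their own. When the T cell receptor binds its ligand, the Src family kinases LCK and FYN phosphorylate its CD3 and ζ chains, the kinase ZAP70 docks there and is activated, and it phosphorylates the adaptors LAT and SLP-76, on which TEC family kinases such as TXK, phospholipase C and protein kinase C θ are brought together. Group 3 innate lymphoid cells (ILC3s), lymphocytes of the gut that make IL-22 and IL-17, carry no rearranged antigen receptor, but share much of this machinery with T cells. The 9 genes described here were chosen by symbol from the 25075 rows of the count table, and all 9 were found. They comprise the kinase genes Lck, Fyn, Zap70, Txk and Prkcq, the adaptor genes Lat and Lcp2, and the surface protein genes Cd2 and Thy1. Cd2 and Thy1 encode an adhesion and costimulatory receptor and a glycolipid-anchored protein, so that not all of the 9 act directly below the receptor.

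Small-intestinal ILC3s were profiled by bulk RNA sequencing in 3 libraries labelled BATF_ko, from Batf fl/fl PLZF-Cre+ mice, and 3 labelled WT, from Batf fl/fl PLZF-Cre- mice, all with a b6 strain background. Batf encodes a transcription factor of the AP-1 family, and both groups carry the floxed alleles. PLZF, whose gene drives this Cre, is made in ILC precursors and in innate-like T cells, so the Cre is not limited to mature ILC3s. For each library 2000 cells with the surface phenotype Lin-CD90.2+KLRG1- were sorted, and 2 ng of RNA went into Smart-seq2, which amplifies whole transcripts as cDNA. Ages, sexes, litters and batches of the mice are not given in the labels.

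The libraries held 8228513 to 13615895 counts in the labelled BATF_ko group and 9080012 to 17334207 in the labelled WT group. Batf, the targeted gene, had 38.3, 41.3 and 41.3 CPM (counts per 1000000 of a library size scaled by TMM, the trimmed mean of M-values) in the libraries labelled BATF_ko, against 15.2, 15.3 and 18.95 CPM in those labelled WT. It was higher where the genotype deletes it (log2 fold change 1.29, SE 0.16, edgeR adjusted p = 1.70e-05). Relative to the panel described below Batf was lower (-1.22, edgeR adjusted p = 2.40e-05), but 87.8% of all genes tested were lower on that scale. The median of all genes there was -2.48, so Batf lay above it. The counts do not show which exons were read, so groups are named by their labels throughout. The groups differed widely in composition. Summed over 9 pancreatic acinar genes, transcripts took 4.41e-05% to 8.51e-05% of counts in the libraries labelled BATF_ko and 8.12% to 8.36% in those labelled WT, and 8 epithelial genes took 0.0182% to 0.0218% labelled BATF_ko against 0.954% to 1.02% labelled WT. The 7 ILC3 marker genes, all measured, summed to 7230 to 8193 CPM in the libraries labelled BATF_ko and to 935 to 1049 CPM in those labelled WT, so markers of the sorted cell type were found in every library, at different levels. In bulk RNA, fewer cells of a type and less RNA per cell cannot be told apart. Fold changes of the 9 genes are therefore given with TMM factors and again relative to a panel of 16 other genes of ILCs and T cells.

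The upstream sequences of several of these genes hold short letter runs of the kind bound by RUNX and ETS factors, families with members in lymphocytes. RefSeq windows from 250 bases before to 50 after an annotated start (GRCm38.p6) were matched for 7 of the 9 genes, 11 windows in all. The RUNX letters TGTGGT, on either strand, stood in 4 of the 11 windows (Lat, Lck, Txk and Zap70) and in 16.8% of 32851 windows of all genes. The ETS letters ACAGGAAG stood in 3 (Lat, Lck and Zap70) and in 3.58% of all windows. The AP-1 letters TGANTCA, a second ETS form (CCGGAAG) and a TATA box (TATAAA) stood in none of the 11, against 7.81%, 8.86% and 13.6% of all windows. The 3 windows that hold both kinds of letters are printed first, with the window of Fyn, the other Src family kinase gene, which holds neither. The windows of Lcp2 and Prkcq also hold neither. The same is true of the further windows of Lck, Zap70 and Txk, at other annotated starts of these genes. With TMM factors Lcp2 changed by more than Lck, Zap70, Lat and Txk, and Fyn and Prkcq changed by less. Whether the letters go with the size of the changes given below was not tested. Capitals mark TGTGGT and ACAGGAAG or their reverse complements, and each sequence runs 5′ to 3′ on the strand of its gene.
Lck (chr4:129573592-129573891, minus strand): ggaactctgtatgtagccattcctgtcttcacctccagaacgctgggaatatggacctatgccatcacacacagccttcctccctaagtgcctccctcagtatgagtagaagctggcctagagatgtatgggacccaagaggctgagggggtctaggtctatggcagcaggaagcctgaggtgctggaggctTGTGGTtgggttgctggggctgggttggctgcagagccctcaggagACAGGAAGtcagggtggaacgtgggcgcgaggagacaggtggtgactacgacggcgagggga
Zap70 (chr1:36764265-36764564, plus strand): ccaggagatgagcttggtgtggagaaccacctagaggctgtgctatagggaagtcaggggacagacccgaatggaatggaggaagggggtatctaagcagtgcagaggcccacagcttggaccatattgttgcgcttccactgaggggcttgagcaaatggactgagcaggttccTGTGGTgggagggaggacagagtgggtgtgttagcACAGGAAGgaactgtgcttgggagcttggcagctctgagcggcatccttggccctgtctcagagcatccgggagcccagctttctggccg
Lat (chr7:126369519-126369818, minus strand): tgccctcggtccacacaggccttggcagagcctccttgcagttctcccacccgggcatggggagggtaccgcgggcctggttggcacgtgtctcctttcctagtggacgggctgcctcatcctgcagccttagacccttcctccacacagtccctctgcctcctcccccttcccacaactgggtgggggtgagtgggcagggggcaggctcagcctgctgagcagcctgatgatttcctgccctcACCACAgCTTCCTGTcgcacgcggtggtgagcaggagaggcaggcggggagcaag
Fyn (chr10:39369549-39369848, plus strand): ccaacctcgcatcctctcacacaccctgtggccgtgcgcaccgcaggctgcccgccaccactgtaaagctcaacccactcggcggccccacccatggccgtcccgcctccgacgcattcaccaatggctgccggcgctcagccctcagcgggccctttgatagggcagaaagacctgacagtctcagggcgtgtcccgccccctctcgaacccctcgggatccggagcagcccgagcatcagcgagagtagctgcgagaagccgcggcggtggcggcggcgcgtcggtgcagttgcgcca
In Lck the RUNX letters began 58 and the ETS letters 12 bases before the start; in Zap70 they began 75 and 40 bases before it. In Lat, where both stood as reverse complements, the RUNX letters began 5 bases before the start and the ETS letters at base 3 after it. Lck, Zap70 and Txk have further annotated starts without these letters, and counts per gene do not show which start was used. A match of letters is a description of the sequence and not evidence of binding.

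The design asks how the transcripts of these ILC3s differ with the genotype at Batf. With TMM factors all 9 genes rose in the libraries labelled BATF_ko and none fell (edgeR quasi-likelihood test, adjusted p of 0.05 over 15261 genes). Of all genes tested 64.4% were called, 30.2% higher and 34.1% lower. Relative to the panel 3 of the 9 rose and 3 fell, where 1.78% of all genes rose and 87.8% fell. With TMM factors the median log2 fold change of the 9 was 2.48, beside 0.02 over all genes. All 9 passed the filter on low counts, with no fewer than 105 counts in any library labelled BATF_ko and 79 in any labelled WT. For each of the 9, every library labelled BATF_ko lay above every library labelled WT, while the groups were apart for 71.2% of genes tested, 34.6% higher and 36.5% lower. The rise was far from even, from 1.35-fold for Fyn to 9.90-fold for Thy1. Scaled to library totals, 7 of the 9 were higher and none lower, where 62.5% of all genes were called, 20% higher and 42.5% lower. Replicates 1 and 2 labelled BATF_ko were far more alike than any other replicate pair (mean chi-square of their counts 2.36 per gene, against 14.8 to 24.2). With that pair averaged into 1 library 8 of the 9 genes were called higher, all but Fyn (0.40, edgeR adjusted p = 0.0810). The same fit called 3665 of all genes higher and 5202 lower.

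Among the kinases, Zap70 rose most. Zap70, which carries the signal from the receptor chains to the adaptors (chromosome 1 from 36761798 to 36782818, mm10), had 531, 503 and 566 CPM in the libraries labelled BATF_ko and 77.2, 54.9 and 59.1 CPM in those labelled WT. Zap70 thus averaged 533 ± 31.9 CPM in the libraries labelled BATF_ko and 63.7 ± 11.9 CPM in those labelled WT (SD, n = 3 each), an 8.39-fold difference (log2 fold change 3.07, SE 0.14, edgeR adjusted p = 1.94e-09). Set beside their spread, the groups lay far apart.

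Lck, which starts signalling by phosphorylating the receptor chains (chromosome 4 from 129548344 to 129573641), had 334, 339 and 365 CPM in the libraries labelled BATF_ko, against 71.9, 52.6 and 62.2 CPM in those labelled WT. This was a 5.57-fold difference (log2 fold change 2.48, SE 0.12, edgeR adjusted p = 6.06e-09). Fyn, the other Src family kinase of T cells, which is also made in many other tissues (chromosome 10 from 39368855 to 39565381), behaved differently. It had 55.6, 57.3 and 60.4 CPM in the libraries labelled BATF_ko and 43.6, 49.5 and 35.6 CPM in those labelled WT, so the groups did not overlap but lay close. Its log2 fold change was 0.43 (SE 0.14, edgeR adjusted p = 0.0181). That call did not hold without labelled BATF_ko replicate 1, 2 or 3, with log2 fold changes of 0.41, 0.39 and 0.31 and edgeR adjusted p = 0.0794, 0.0892 and 0.139, nor under scaling to library totals (0.05, edgeR adjusted p = 0.786).

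Txk, a TEC family kinase that activates phospholipase C (chromosome 5 from 72695978 to 72752777), had 235, 234 and 227 CPM in the libraries labelled BATF_ko and 44.3, 42.2 and 50.4 CPM in those labelled WT. Its replicates spread least relative to their mean, at 232 ± 4.72 CPM labelled BATF_ko against 45.6 ± 4.28 CPM labelled WT (SD, n = 3 each; log2 fold change 2.34, SE 0.11, edgeR adjusted p = 2.86e-09). Prkcq, which encodes protein kinase C θ (chromosome 2 from 11172108 to 11301222), was the least abundant of the 9 per length in both groups. It had 17.05, 14.9 and 15.2 CPM in the libraries labelled BATF_ko and 7.45, 5.67 and 11.4 CPM in those labelled WT (log2 fold change 0.94, SE 0.28, edgeR adjusted p = 0.0107). Replicate 3 labelled WT lay nearest the other group. Without labelled BATF_ko replicate 1 the value was 0.83 (edgeR adjusted p = 0.0550), and with library totals it was 0.56 (edgeR adjusted p = 0.0916).

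Both adaptor genes rose. Lat encodes the membrane scaffold that ZAP70 phosphorylates (chromosome 7 from 126363824 to 126369570). It had 104, 104 and 113 CPM in the libraries labelled BATF_ko and 15.8, 18.2 and 19.8 CPM in those labelled WT, a 5.91-fold difference (log2 fold change 2.56, SE 0.13, edgeR adjusted p = 5.82e-09). Lcp2 encodes SLP-76, the cytosolic partner of LAT (chromosome 11 from 34046920 to 34092295), and had 83.4, 113 and 83.4 CPM in the libraries labelled BATF_ko against 10.1, 4.58 and 13.8 CPM in those labelled WT. Its replicates spread most among the strongly changed genes, with labelled WT replicate 2 lowest (log2 fold change 3.29, SE 0.36, edgeR adjusted p = 5.90e-05). An annotated transcript on the opposite strand, 4930469K13Rik, shares 282 bases (6.32%) of the exons of Lcp2, and whether counting used strand is not stated in the labels. Lck and Lat overlap the microRNA genes Mir8119 and Mir7058 over 25 and 75 exon bases, and no other exon overlap was annotated for the 9 genes.

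The surface protein genes differed from each other. Thy1 encodes CD90, by which the cells were sorted (chromosome 9 from 44043384 to 44048579), and had 449.6, 415 and 493 CPM in the libraries labelled BATF_ko, against 39.7, 47.3 and 49.9 CPM in those labelled WT. This was the largest fold of the 9 (9.90-fold, log2 fold change 3.31, SE 0.12, edgeR adjusted p = 3.93e-10). Cd2, whose product binds CD48 on other leukocytes in the mouse (chromosome 3 from 101275899 to 101287939), had 23.0, 19.6 and 25.8 CPM in the libraries labelled BATF_ko against 10.7, 7.67 and 8.31 CPM in those labelled WT. The groups lay apart. The difference was 2.58-fold (log2 fold change 1.37, SE 0.21, edgeR adjusted p = 0.000146).

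**Figure D1:**
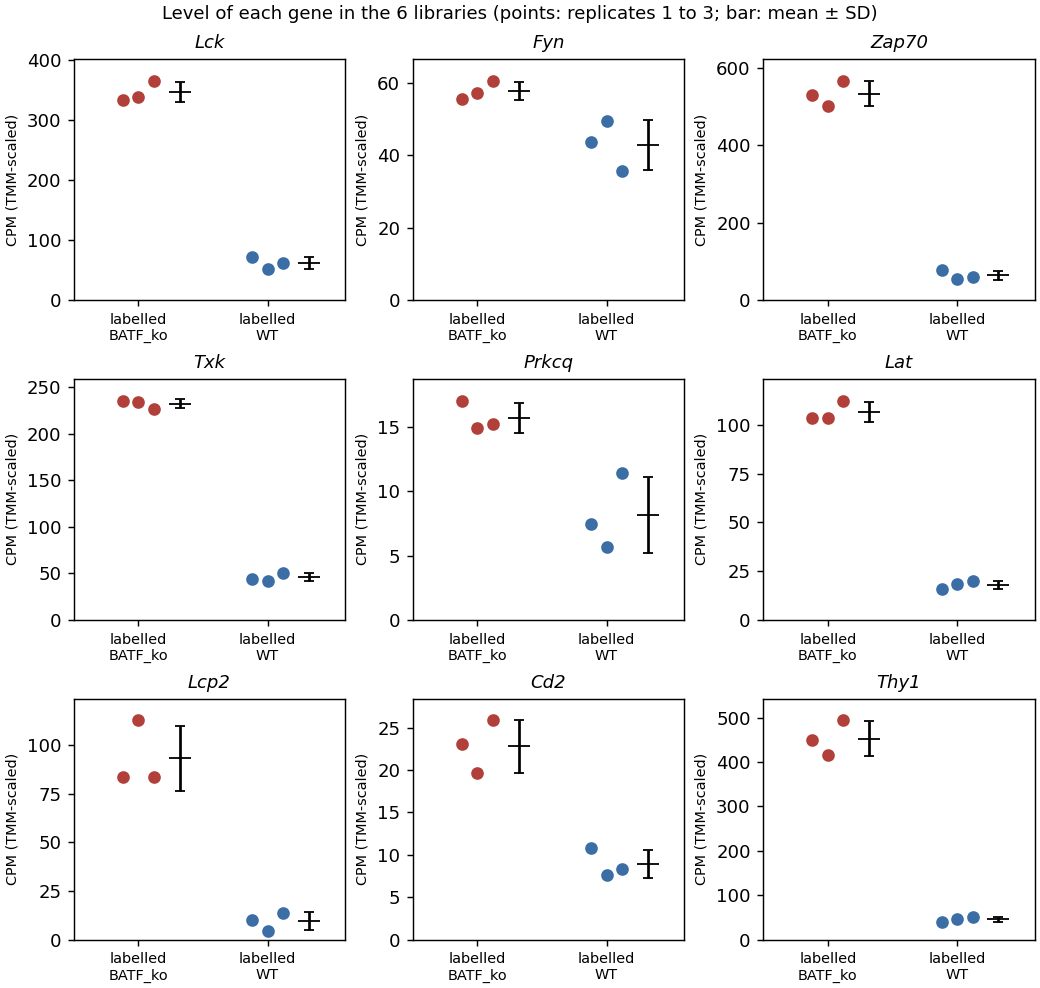
TMM-scaled CPM of each of the 9 genes in the 3 libraries labelled BATF_ko (left, red) and the 3 labelled WT (right, blue), on linear axes from 0, with the mean ± SD in black. No gene overlaps between groups, and the gap is narrowest, as a ratio, for Fyn, at 55.6 to 60.4 CPM labelled BATF_ko against 35.6 to 49.5 CPM labelled WT; relative to the panel Fyn, Prkcq and Cd2 turn lower.

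Direction depended on what the libraries were scaled to. The 16 panel genes, none of them among the 9, took 1.18% to 1.24% of counts in the libraries labelled BATF_ko and 0.273% to 0.285% in those labelled WT. Scaling on them moved the median log2 fold change of all genes to -2.48, and library totals moved it to -0.36. On the panel scale 3 of the 9 genes were called higher, where 1.78% of all genes were, 3 were called lower, where 87.8% were, and 3 passed in neither direction, where 89.5% of all genes were called. Thy1, Lcp2 and Zap70 rose relative to the panel, by 0.81, 0.77 and 0.56 on the log2 scale (edgeR adjusted p = 6.58e-05, 0.0350 and 0.00369). Lat, Lck and Txk had 0.06, -0.032 and -0.17 (edgeR adjusted p = 0.713, 0.841 and 0.239). Cd2, Prkcq and Fyn fell by 1.14, 1.57 and 2.07 (edgeR adjusted p = 0.000964, 0.000208 and 1.49e-08). The panel genes themselves were uneven on this scale, from -4.42 for S1pr1, -1.54 for Bcl11b and -1.13 for Gata3 to 0.78 for Cxcr6 and 0.95 for Cd96. All 9 values lay within that range, although Fyn and Prkcq lay below every panel gene but S1pr1. The panel is thus not a steady reference, and which genes rise or fall depends on its members. Against the shifted median of all genes, the 9 lay between 0.41 for Fyn and 3.29 for Thy1. Taking off that median undoes the shift, so these values nearly repeat those with TMM factors and are no separate result. With a smaller panel of 6 ILC3 markers, chosen after the data were seen, Lcp2 no longer passed (0.67, edgeR adjusted p = 0.0636).

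**Figure D2:**
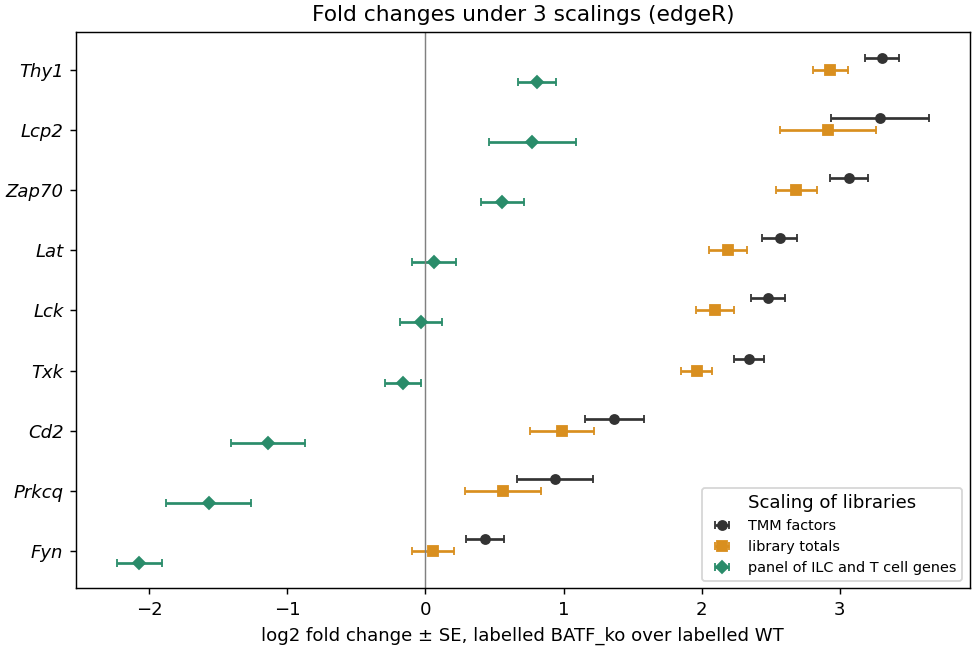
Log2 fold change ± SE of each gene, labelled BATF_ko over labelled WT, from edgeR with TMM factors (circles), library totals (squares) and the 16 panel genes (diamonds). The order of the genes is the same under each scaling, because a scaling shifts every gene by nearly the same amount. The panel moves Lck to -0.032 and Fyn to -2.07.

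Counts relative to the panel show the same division library by library. Lck had 23.3, 23.5 and 28.2 counts per 1000 panel counts in the libraries labelled BATF_ko and 30.5, 20.9 and 25.3 in those labelled WT, and the groups overlapped. Lat and Txk also overlapped, at 7.17 to 8.67 labelled BATF_ko against 6.72 to 8.08 labelled WT for Lat, and at 16.2 to 17.5 labelled BATF_ko against 16.8 to 20.5 labelled WT for Txk. Zap70 lay above in the libraries labelled BATF_ko, at 36.9, 34.8 and 43.7, against 32.7, 21.9 and 24.1 in those labelled WT. Thy1 lay above as well, at 31.3, 28.7 and 38.0 labelled BATF_ko against 16.8, 18.9 and 20.3 labelled WT, and so did Lcp2, at 5.81, 7.80 and 6.43 labelled BATF_ko against 4.28, 1.82 and 5.62 labelled WT. For Lcp2 the gap was small beside the spread. Fyn had 3.87, 3.96 and 4.66 in the libraries labelled BATF_ko and 18.5, 19.7 and 14.5 in those labelled WT, so that the panel-relative level was 4.20-fold lower in the libraries labelled BATF_ko. Prkcq and Cd2 lay below without overlap too, at 1.03 to 1.19 labelled BATF_ko against 2.26 to 4.65 labelled WT for Prkcq, and at 1.36 to 1.99 labelled BATF_ko against 3.06 to 4.56 labelled WT for Cd2. With 3 libraries a group, an exact two-sided permutation test cannot give less than p = 0.1, which each of the non-overlapping genes had.

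**Figure D3:**
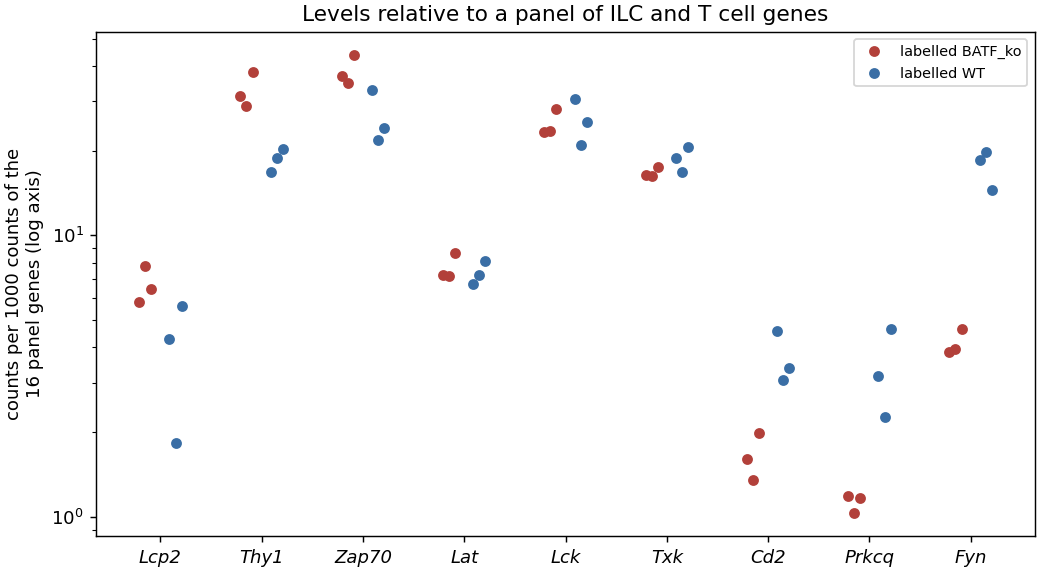
Counts of each gene per 1000 counts of the 16 panel genes (log axis), with 3 libraries labelled BATF_ko (left, red) and 3 labelled WT (right, blue) per gene, ordered by the difference. Lat, Lck and Txk overlap between groups, Lcp2, Thy1 and Zap70 lie higher and Cd2, Prkcq and Fyn lower in the libraries labelled BATF_ko.

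Levels were compared between genes per exon length, as FPKM (TMM-scaled CPM per 1000 exon bases). In the libraries labelled BATF_ko the order was Zap70 (178 ± 10.7 FPKM), Thy1 (151 ± 13.1), Lck (118 ± 5.69), Lat (38.5 ± 1.84), Txk (21.2 ± 0.431), Lcp2 (20.9 ± 3.79), Fyn (13.2 ± 0.567), Cd2 (13.1 ± 1.79) and Prkcq (2.22 ± 0.163; SD, n = 3 each). Txk and Lcp2, and Fyn and Cd2, overlapped between libraries. In the labelled WT libraries Zap70 (21.3 ± 3.96 FPKM) and Lck (21.2 ± 3.31) led and overlapped, followed by Thy1 (15.2 ± 1.77), Fyn (9.83 ± 1.59), Lat (6.49 ± 0.727), Cd2 (5.12 ± 0.933), Txk (4.17 ± 0.390), Lcp2 (2.13 ± 1.04) and Prkcq (1.16 ± 0.416). There Lat overlapped Cd2, Cd2 overlapped Txk and Lcp2 overlapped Prkcq. Fyn thus stood at place 7 in the libraries labelled BATF_ko and at place 4 in those labelled WT. With the longest transcript in place of all exons, Thy1 and Zap70 overlapped in the libraries labelled BATF_ko, and Fyn stood at place 8 there and at place 4 in the labelled WT.

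Ratios of counts within a library do not depend on scaling. They are not corrected for transcript length, so each is compared between groups and does not give which gene of a pair was the more abundant. The count of Lck was 6.01, 5.93 and 6.04 times that of Fyn in the libraries labelled BATF_ko and 1.65, 1.06 and 1.75 times in those labelled WT. The ratio was steady over the libraries labelled BATF_ko and lower and more variable over those labelled WT. Zap70 was set against Syk, its relative in B cells and myeloid cells. Syk had 6, 7 and 11 counts in the libraries labelled BATF_ko and 216, 369 and 702 in those labelled WT. The ratio of Zap70 to Syk was 638, 505 and 639.7 in the libraries labelled BATF_ko and 3.79, 2.60 and 1.62 in those labelled WT. Both the few counts of Syk in the libraries labelled BATF_ko and the higher Zap70 count there (14404 in all, against 2916 labelled WT) enter this large gap. The ratio of Lcp2 to Blnk, the adaptor of the B cell receptor, was 35.4, 26.4 and 35.7 in the libraries labelled BATF_ko and 0.215, 0.0918 and 0.269 in those labelled WT. Both the higher Lcp2 count and the lower Blnk count in the libraries labelled BATF_ko enter this gap. Prkcq to Prkcb, a protein kinase C of B cells, was 1, 1.12 and 1.15 labelled BATF_ko against 0.425, 0.237 and 0.399 labelled WT. Lat to Lat2, an adaptor of B cells and mast cells, was 25.8, 30.4 and 49.9 labelled BATF_ko against 2.40, 4.30 and 5.97 labelled WT. Lck to Lyn was 3.53, 3.74 and 4.33 labelled BATF_ko against 1.08, 0.849 and 1.05 labelled WT. Each of these ratios was higher in every library labelled BATF_ko. Btk, the B cell relative of Txk, had 1 count in all in the libraries labelled BATF_ko and 84 in those labelled WT, beside 6160 counts of Txk in the libraries labelled BATF_ko and 2178 in those labelled WT. Cd2 to its ligand gene Cd48 ran the other way, at 0.339, 0.287 and 0.426 labelled BATF_ko against 0.755, 0.454 and 1.07 labelled WT. Thy1, which fibroblasts and neurons also make, was set against the collagen gene Col1a1 and gave 232, 292 and 170.3 labelled BATF_ko against 0.182, 0.220 and 0.205 labelled WT. Col1a1 had 60 counts in all in the libraries labelled BATF_ko and 10753 in those labelled WT (log2 fold change -6.67). The gap in this ratio thus rests largely on Col1a1. No ratio with a value in every library overlapped between groups, and each had an exact two-sided permutation p = 0.1, the smallest that 3 against 3 libraries can give.

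**Figure D4:**
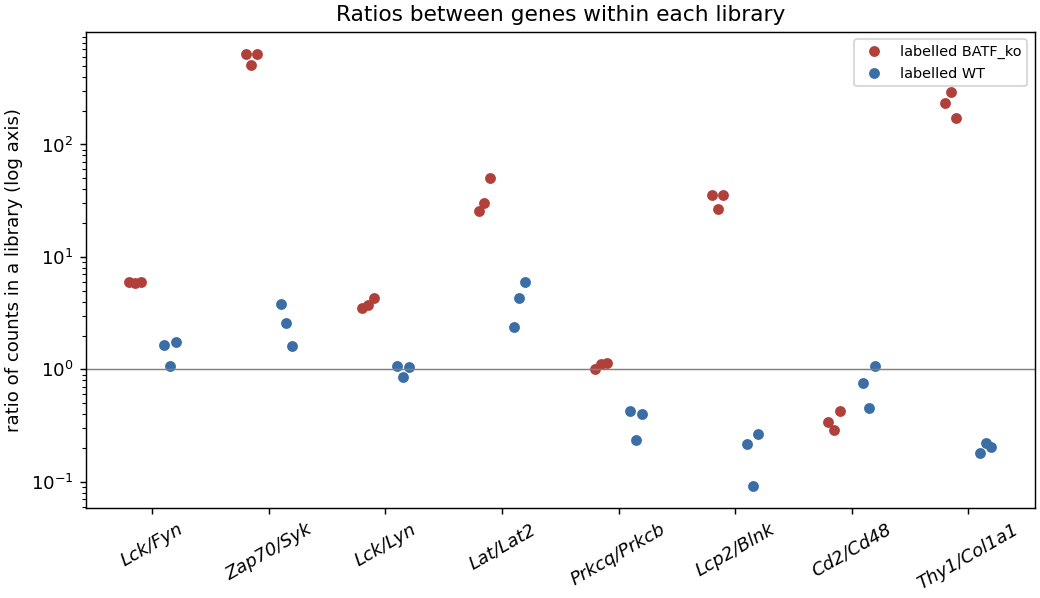
Ratio of the counts of a gene to those of a related, partner or marker gene within each library (log axis, line at 1), for the libraries labelled BATF_ko (left, red) and labelled WT (right, blue). Only Cd2/Cd48 is lower in the libraries labelled BATF_ko, and Zap70/Syk, Lcp2/Blnk and Thy1/Col1a1 differ most. In each of these the second gene had few counts in the libraries labelled BATF_ko.

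The relatives of these kinases and adaptors in other cell types mostly went the other way. Of 15 such genes 14 were tested, of which 3 were higher, 10 lower and 1 did not pass, with a median log2 fold change of -1.03, where 30.2% of all genes were higher and 34.1% lower with a median of 0.02. Syk and Blnk fell by 4.84 and 4.08 on the log2 scale (edgeR adjusted p = 1.34e-07 and 1.76e-08), and Prkcb fell by 0.69 (edgeR adjusted p = 0.0155). Lat2 had -0.55 (edgeR adjusted p = 0.270). The 4 broadly expressed relatives Src, Yes1, Prkca and Prkce were all lower, with a median of -1.10. The 3 higher genes were Blk, a Src family kinase of B cells and of IL-17-making γδ T cells (136 ± 12.4 CPM labelled BATF_ko against 16.4 ± 2.02 CPM labelled WT, log2 fold change 3.05), Plcg2, a phospholipase C (1.49), and Lyn, a Src family kinase (0.52; edgeR adjusted p = 2.10e-09, 1.02e-06 and 0.00130). With panel scaling only Blk of the 14 remained higher, at 0.54 (edgeR adjusted p = 0.00703), and 13 were lower, a count to be read against the 87.8% of all genes that were lower on that scale.

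Of 58 other genes of the pathway, all tested, 47 were higher with TMM factors, 4 lower and 7 did not pass, with a median log2 fold change of 1.83; with panel scaling 9 were higher and 33 lower, with a median of -0.68. Of all genes, 30.2% were higher and 34.1% lower with TMM factors, and 1.78% higher and 87.8% lower, with a median of -2.48, on the panel scale, against which the counts by role that follow are also to be read. All 5 receptor chain genes were higher, and 3 of them also relative to the panel, among them Cd3e (283 ± 7.96 CPM labelled BATF_ko against 37.4 ± 3.80 CPM labelled WT, log2 fold change 2.92), Cd3g (3.59) and Cd247, which encodes the ζ chain that ZAP70 binds (76.4 ± 7.62 CPM labelled BATF_ko against 6.17 ± 1.73 CPM labelled WT, 3.63). Relative to the panel Cd3e, Cd3g and Cd247 had 0.41, 1.09 and 1.13 and stayed higher (edgeR adjusted p = 0.0127, 7.99e-06 and 0.000602). Of 8 coreceptor and costimulation genes 6 were higher and 1 lower, against 2 and 3 relative to the panel. The costimulatory receptor genes Cd226 and Icos had 4.19 and 3.29, with 103 ± 8.84 CPM labelled BATF_ko against 5.86 ± 2.83 CPM labelled WT for Cd226, and stayed higher relative to the panel at 1.66 and 0.77. Cd8a, a coreceptor of cytotoxic T cells, fell by 4.15 and had 1, 1 and 5 counts in the libraries labelled BATF_ko against 62, 56 and 94 in those labelled WT.

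Of 5 further kinase genes 4 were higher and none lower, and relative to the panel none was higher and 4 were lower, where 87.8% of all genes were lower. Tec, a TEC family kinase, and Stk4 had 2.23 and 1.65, and Csk, whose product restrains LCK, had 0.63 (128 ± 8.81 CPM labelled BATF_ko against 83.2 ± 12.7 CPM labelled WT, edgeR adjusted p = 0.000981). Csk was lower relative to the panel, at -1.88, as Fyn was. Of 14 adaptors and scaffolds 12 were higher and 2 lower, against 2 and 7 relative to the panel, led by Sit1 (3.99), Sh2d2a, whose product binds LCK (2.95, with 624 ± 7.57 CPM labelled BATF_ko against 81.0 ± 5.40 CPM labelled WT), and Lime1 (2.73). Sit1 and Sh2d2a stayed higher relative to the panel at 1.47 and 0.44. Grb2 and Nck2, named after their values were seen, fell by 0.38 and 1.82.

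Of 12 downstream effectors 8 were higher and none lower, against 1 and 9 relative to the panel. Rasgrp1, an activator of RAS downstream of LAT, had 3.22 (236 ± 10.04 CPM labelled BATF_ko against 25.2 ± 5.63 CPM labelled WT) and stayed higher relative to the panel at 0.72. Nfatc3 and Nfatc2, transcription factors switched on by calcium, had 2.60 and 2.22, and Plcg1, the phospholipase C recruited to LAT, had 1.54 and a panel-scaled -0.97. Of 14 phosphatase and inhibitor genes 12 were higher and 1, Dgkz (named after its value was seen), was lower, by 1.53, while relative to the panel 1 was higher and 10 were lower. Dok1, an inhibitory adaptor, had 3.40 (0.92 relative to the panel), Pstpip1 2.56 and Ubash3a 2.42. Ptprc, which encodes the phosphatase CD45 that primes LCK, had 1.81 (530.2 ± 66.8 CPM labelled BATF_ko against 151.6 ± 20.2 CPM labelled WT) and a panel-scaled -0.71.

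**Figure D5:**
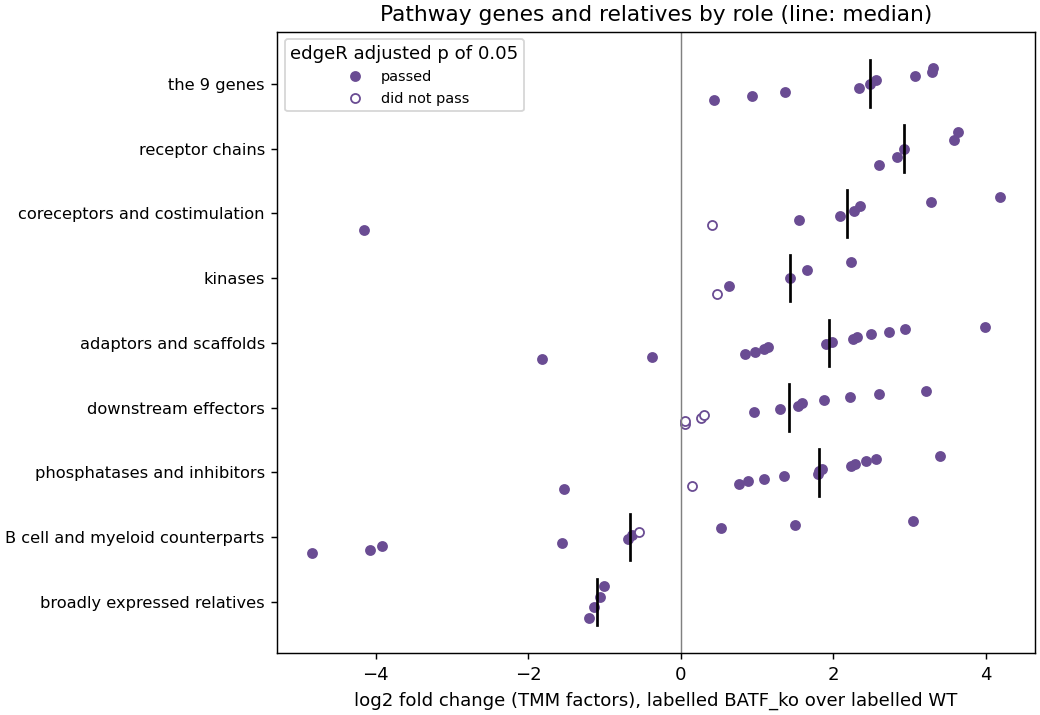
Log2 fold changes with TMM factors, labelled BATF_ko over labelled WT, of the 9 genes, of 58 other pathway genes by role and of 14 tested relatives in other cell types; filled circles passed an edgeR adjusted p of 0.05 and lines are medians. The 9 genes have a median of 2.48 and the receptor chains one of 2.92, while the B cell and myeloid counterparts have -0.66; relative to the panel the medians of the 9 and of the 58 genes are -0.032 and -0.68.

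Markers of other cell types moved with the groups. The 8 αβ T cell markers, all detected in both groups, summed to 1416 to 1442 CPM in the libraries labelled BATF_ko and to 237 to 260 CPM in those labelled WT, with 5 higher and 1 lower. Of their coreceptor genes, Cd8a is given above, and Cd4 averaged 37.1 ± 5.10 CPM labelled BATF_ko and 27.9 ± 6.10 CPM labelled WT (log2 fold change 0.41, edgeR adjusted p = 0.0676; -2.09 relative to the panel). Cd8b1 averaged 0.947 ± 0.412 CPM labelled BATF_ko and 0.996 ± 0.628 CPM labelled WT (SD, n = 3 each). Of 6 γδ T cell markers 2 were analysed here, Trdc and Trdv4, which were both higher and summed to 274 to 276 CPM labelled BATF_ko against 21.5 to 33.6 CPM labelled WT. The 6 NK cell and ILC1 markers summed to 431 to 458 CPM labelled BATF_ko against 39.6 to 47.9 CPM labelled WT, with 3 higher. Eomes and Klre1 did not pass (log2 fold changes 0.12 and 0.17, edgeR adjusted p = 0.824 and 0.830), and Klra8 was not tested. Most of the sum labelled BATF_ko came from the 3 higher genes, Ncr1, Tbx21 and Klrb1c, which averaged 217, 163 and 57.7 CPM there. In the other direction, the 6 ILC2 markers summed to 199.6 to 204 CPM labelled BATF_ko against 483 to 553 CPM labelled WT with 2 higher and 2 lower. Most of that sum was Areg (175 ± 2.62 CPM labelled BATF_ko, 503 ± 41.6 CPM labelled WT). Klrg1 and Il1rl1 were higher (log2 fold changes 2.23 and 3.29), and Areg and Hpgds lower (-1.52 and -2.31). The 5 plasma cell markers summed to 1093 to 1122 CPM labelled BATF_ko against 8746 to 9047 CPM labelled WT with 1 higher and 3 lower. ILC2s carry CD90 as well. The 6 B cell markers summed to 127 to 149 CPM labelled BATF_ko against 159 to 169.98 CPM labelled WT with 4 lower and 1 higher, and the 7 macrophage and dendritic cell markers to 36.1 to 42.7 CPM labelled BATF_ko against 360.02 to 382 CPM labelled WT with 6 lower. The 7 stromal markers summed to 56.4 to 63.2 CPM labelled BATF_ko against 884 to 919 CPM labelled WT with 6 lower, the 6 enteric neuron and glia markers to 1.85 to 2.08 CPM labelled BATF_ko against 24.3 to 30.5 CPM labelled WT with 4 lower, and the 5 platelet markers to 3.14 to 4.12 CPM labelled BATF_ko against 55.9 to 88.1 CPM labelled WT with 2 lower. Elavl4 of the neurons, for example, had no count in any of the 3 labelled BATF_ko and 14, 37 and 7 counts in those labelled WT. The part of these cells in the levels of the 9 genes was not tested.

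Among 8729 other genes, those whose profile over the 6 libraries lay nearest to the mean of the 9 were Sema4d, Itgal, Tnfrsf9, Cers4, Rac2 and the kinase gene Tec, with a root mean square difference of 0.0591 to 0.0667 on the centred log2 CPM scale and log2 fold changes of 2.13 to 2.30. Of the 9 themselves, Txk lay nearest to their mean, at 0.0963, and Fyn farthest, at 0.909.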

How the data were processed

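The authors deposited a single table of raw counts per gene symbol for 6 Smart-seq2 libraries, per the labels' protocols; the submitters' processing notes name mm10. The aligner, the counter, its annotation and its strand setting are not stated in those sources. Counts are reads without molecular identifiers. Groups follow the sample titles. Tests used edgeR 4.0.16 under R 4.3.3 (filterByExpr with a minimum count of 10, TMM factors of 0.857 to 0.914 in the labelled BATF_ko and 1.11 to 1.17 in the labelled WT libraries, robust glmQLFit, glmQLFTest, two-sided, group as the only term, Benjamini-Hochberg over 15261 genes, threshold 0.05). The code was tested on simulated data in which few genes changed, as many up as down. That simulation lacked the difference in composition between these groups, so it does not show which scaling is right here. SE is the log2 fold change over the root of the test's F. Alternatives used DESeq2 1.42.0 and limma 3.58.1 (voom). Lengths and coordinates are from GENCODE M21 on the same build. The 9 genes, the lists and the panel (16 genes scaled by their summed counts, among them Il7r, Il2rg, Id2, Gata3, Rora, Ets1, Runx3, Ikzf1, Ikzf3, Bcl11b, Ptprcap, Ltb, Cd96, Cxcr6 and S1pr1) were chosen with earlier results of these data known. Pathway genes named were the 3 called genes with the largest change per role and Cd3e, Cd247, Plcg1, Csk and Ptprc; Batf, Syk, Lyn, Blk, Btk, Blnk, Lat2 and Prkcb were named by the same rule. A few further genes under it are not reported here. Profile neighbours were the 6 nearest genes whose log2 CPM (0.5 CPM added) averaged at least 3. The series design calls the samples biological replicates; nothing else shows separate animals, and p-values measure only the spread between these samples, which may be technical.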

Additional observations from a re-analysis of the deposited data

How the results depend on the processing

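With library totals, DESeq2 size factors, DESeq2, limma voom, other filters, the replicate block, each replicate left out and the averaged pair, 14 alternatives in all, the log2 fold changes of the 9 genes stayed positive. The call was lost in 5 of the 14 for Fyn and in 2 for Prkcq, and in none for the other 7 genes. Leaving out a replicate left 7 to 9 of the 9 genes higher, while 3603 to 4705 of all genes were higher. With library totals 3048 of all genes were higher, against 4612 with TMM factors. With panel scaling 3 of the 9 genes were higher and 3 lower, 9 pathway genes were higher and 33 lower, 1 relative was higher, and 272 of all genes were higher and 13392 lower. Reversed values under it were -0.032 for Lck, -2.07 for Fyn, -0.17 for Txk, -1.57 for Prkcq and -1.14 for Cd2. With 6 ILC3 markers as the panel, added after seeing the data, 2 of the 9 were higher and 3 lower, 8 pathway genes were higher and 33 lower, 1 relative was higher, and 238 of all genes were higher and 13515 lower. The reversed values were then -0.12 for Lck, -2.15 for Fyn, -0.26 for Txk, -1.67 for Prkcq, -0.025 for Lat and -1.22 for Cd2. The cause was not tested. By longest transcript, 5 of the 9 genes kept their place in the order of levels in each group, by the alternative's own lengths.

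Same-numbered libraries of the groups did not deviate together (correlations of 0.0106, 0.0353 and 0.0475), so the numbers were not used as pairs; with the replicate block 9 of the 9 genes, 49 pathway genes and 4603 of all genes were higher, and 0, 4 and 5091 lower.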
